A study of Mus musculus with 6 samples.

Results

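The genes described here are 46 genes that build ribosomes or feed that work in mouse CD4 T cells. They encode nucleolar proteins, assembly factors of both ribosomal subunits, subunits and factors of RNA polymerase I, and enzymes of polyamine and pyrimidine synthesis. The members came from a list of gene symbols. No measured value is part of the choice rule, but the list was drawn up with earlier results of these data known. All 46 were found among the 22624 genes of the deposited table, and all 46 were expressed highly enough to be tested, among 10864 genes. For 40 of them the table holds 1 transcript, and for the other 6 the values of several transcripts were summed.

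RNA was sequenced from 6 libraries of CD4 T cells. In 3 libraries the cells carried MigR1, a retroviral vector with a GFP marker, holding the cDNA of Blimp-1, a transcriptional repressor encoded by Prdm1. In the other 3 they carried MigR1 with no insert. All 6 came from wild-type C57/BL6 mice, for which the sources used here give neither age nor sex. Naive cells, selected as CD4+ with low CD44, CD62L and no CD25, were purified from lymph nodes and spleen. They were stimulated for 36 hours on bound antibodies to CD3 and CD28 while IFN-gamma and IL-4 were blocked, a condition called Th0. Transduction followed, then 2 days of culture and a sort on GFP (a second label gives 3 days of activation). About 0.5 M sorted cells were taken, from 3 biological replicates. The sources used here do not name the promoter that drives the insert. In every Blimp-1 cell the protein was added from a vector on top of the cell's own gene.

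Ribosome production starts in the nucleolus, where RNA polymerase I transcribes the genes of the large ribosomal RNAs. Small nucleolar ribonucleoprotein particles, snoRNPs, guide the chemical modification and cleavage of this precursor while assembly factors fold it with ribosomal proteins into the small and the large subunit. T cells that leave the resting state after antigen receptor stimulation enlarge their nucleoli and raise ribosome output before they divide. The transcription factor MYC is known to activate many of these genes and also the polyamine enzyme gene Odc1, through the E-box CACGTG.

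The values are FPKM, which scale reads to transcript length and to library size, so levels of different genes can be compared per length. They measure a gene's level relative to the other RNA sequenced in its library and say nothing of the amount in a cell. In RNA from a bulk sample, fewer cells of a type and less RNA per cell cannot be told apart. Estimated depth was 33.8 to 46.2 M reads in the Blimp-1 libraries and 17.2 to 38.5 M in the empty vector libraries. Replicate 3 was the shallowest of each group, at 33.8 M with Blimp-1 and 17.2 M with the empty vector. Empty vector replicate 1 was at 18.1 M. Among the members with 1 transcript, the least covered library value was that of Rrp9, at about 158 reads. T cell markers summed to 1395 to 1579 FPKM in the Blimp-1 libraries and 1384 to 1657 FPKM in the empty vector libraries, with Cd4 at 217 FPKM or more in each library. Cd8a was below 1 FPKM throughout, and Cd8b1 lay at 7.83 to 10.9 FPKM in the Blimp-1 libraries and 7.01 to 10.2 FPKM in the empty vector libraries. The sums of B cell, macrophage and dendritic cell markers stayed below 6 FPKM in each library. NK cell markers summed to 14.0 to 35.8 FPKM with Blimp-1 and 3.59 to 28.8 FPKM with the empty vector, with Ncr1 at 0 throughout. Plasma cell markers summed to 33.3 to 35.5 FPKM with Blimp-1 and 32.9 to 56.9 FPKM with the empty vector, nearly all of it Xbp1. Prdm1 stood at 9.91, 12.8 and 9.45 FPKM in Blimp-1 replicates 1, 2 and 3, against 0.996, 2.03 and 1.38 FPKM with the empty vector. Its log2 difference was 2.26 (SE 0.19, limma adjusted p = 0.0565, and 0.00488 with the replicate number as a block).

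One library stood apart. On principal component 1, which carried 52.9% of the variance, empty vector replicate 3 lay at 33.7, while the Blimp-1 libraries lay at -22.7 to 12.6 and the other empty vector libraries at -18.5 and 3.16. The NK cell receptor gene Klrd1 was also lowest there, at 3.16 FPKM, against 12.8 to 30.4 FPKM in the Blimp-1 libraries and 12.7 and 26.2 FPKM in the other empty vector libraries. Same-numbered libraries of both vectors deviated together from their vector means (correlations 0.80, 0.81 and 0.70), so each Blimp-1 library is also compared with the empty vector library of its number. The medians of the roles and the differences of the members whose values are given in each library, where they move by over 1.5 times, are also given without the libraries numbered 3.

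The promoters of 41 members were found in the RefSeq promoter table of build GRCm38.p6, which spans 250 bases before and 50 bases after each gene's start. Those of Bop1, Fbl, Npm1, Rrp12 and Srm were not in it. The E-box CACGTG, which reads the same on both strands, was in 7 of 41 member promoters (17.1%), against 8.09% of the 27025 genes of the table and 12.1% of the 8740 tested genes in it. These 7 were Mybbp1a, Wdr43, Utp20, Nop2, Pes1, Rrn3 and Sms. The GC box GGGCGG, searched on both strands, was in 31 of 41 (75.6%), against 38.2% of all genes and 69.2% of tested genes. The CCAAT box CCAAT, also on both strands, was in 13 of 41 (31.7%), against 41.1% and 43.6%. From 4 genes, stretches of 250 bases that end just before the gene start are printed below from RefSeq, 5′ to 3′ on the gene's strand, with matches to these motifs in capitals. Rrn3 (chr16:13780449-13780698, + strand) is shown because CACGTG occurs at 2 places, 215 and 48 bases before the start. Nop56 (chr2:130274162-130274411, + strand) and Bysl (chr17:47611493-47611742, - strand) are the members with the most negative difference between the vectors, and Ncl (chr1:86359456-86359705, - strand) is 1 of the 2 whose values did not overlap between them. Nop56 holds a GC box 104 bases and a CCAAT box 32 bases before the start, Ncl holds GC boxes at 113, 87 and 72 bases, and the Bysl stretch holds none of the 3 motifs. The counts above used all windows of a gene, with the 50 bases after the start. In those windows Bysl and Rrn3 each hold a GC box, which lies outside the printed stretch. A match in these windows is a string of letters and was not tested as a binding site.
Rrn3: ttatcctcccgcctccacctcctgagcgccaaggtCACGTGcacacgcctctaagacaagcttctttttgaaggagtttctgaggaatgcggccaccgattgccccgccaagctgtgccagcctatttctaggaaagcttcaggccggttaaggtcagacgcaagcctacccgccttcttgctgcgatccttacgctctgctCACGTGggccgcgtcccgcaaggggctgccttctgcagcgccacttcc
Nop56: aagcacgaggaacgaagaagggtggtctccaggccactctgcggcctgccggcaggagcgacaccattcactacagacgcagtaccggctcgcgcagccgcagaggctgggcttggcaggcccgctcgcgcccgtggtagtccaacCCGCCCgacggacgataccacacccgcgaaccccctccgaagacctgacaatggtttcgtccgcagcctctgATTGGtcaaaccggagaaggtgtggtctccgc
Ncl: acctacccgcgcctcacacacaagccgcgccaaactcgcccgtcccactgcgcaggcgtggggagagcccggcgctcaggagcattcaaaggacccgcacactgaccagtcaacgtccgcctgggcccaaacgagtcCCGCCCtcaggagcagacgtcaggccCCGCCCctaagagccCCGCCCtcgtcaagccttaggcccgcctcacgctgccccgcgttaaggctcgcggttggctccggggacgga
Bysl: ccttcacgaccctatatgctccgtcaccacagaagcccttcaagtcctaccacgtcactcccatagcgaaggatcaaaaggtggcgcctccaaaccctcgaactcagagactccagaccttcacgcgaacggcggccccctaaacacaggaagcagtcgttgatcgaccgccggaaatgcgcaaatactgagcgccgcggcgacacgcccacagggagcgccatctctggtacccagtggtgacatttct

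Over all 6 libraries no member passed the test in either direction. Of the 46 members 0 were called higher and 0 lower with Blimp-1 at an adjusted p below 0.05 (limma, Benjamini-Hochberg over all genes tested), against a background of 0% in each direction among the 10864 genes. At an unadjusted limma p below 0.05 there were 123 genes in all (1.13%), and 0 of them were members. With the replicate number as a block, limma again called 0 members, against a background of 0.0092% higher and 0.0092% lower, and the lowest adjusted p among members was 0.151, for Sms. At an unadjusted p below 0.05 in that fit, 3 members were higher (Npm1, Sms and Taf1d, 6.52% of members, background 9.78%). In the same fit 2 were lower (Bysl and Nop10, 4.35%, background 10.7%). The SE and adjusted p given below for single genes are from the fit without the block, unless the block is named. The fit without the block ignores the pairing by replicate number. With the block the SE was 0.052 for Npm1 (0.11 without), 0.063 for Sms (0.16 without) and 0.10 for Taf1d (0.20 without). For Srm (0.38, against 0.37 without) and Gnl3 it was slightly larger with the block.

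The members' median log2 difference was -0.13, against -0.01 for all genes tested, and 35 of 46 lay below 0 (76.1%, background 52%). This count rested on the libraries numbered 3. It was 21 of 46 without empty vector replicate 3 (45.7%, background 51.2%), 27 without Blimp-1 replicate 3 (58.7%, background 50.4%) and 13 without both (28.3%, background 50.1%), so that 22 members below 0 with all libraries were above 0 without them. That median differed widely between the replicate pairs. It was 0.03 in pair 1, 0.13 in pair 2 and -0.57 in pair 3, while the median of all genes was within 0.01 of 0 in each pair. In pair 1 21 members were lower with Blimp-1 (45.7%, background 49.2%), in pair 2 8 were (17.4%, background 50.2%) and in pair 3 41 were (89.1%, background 51.1%). In pair 2 the other 38 were higher (82.6%, background 49.8%). The commonest sequence of signs was higher in pairs 1 and 2 and lower in pair 3, in 19 members (41.3%, background 11.8%). The next was higher in pair 2 alone, in 14 members (30.4%, background 10.5%).

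In the median over all members, both libraries of pair 3 lay away from their own group, in opposite directions. This did not hold in each role. Empty vector replicate 3 lay above both other empty vector libraries for 32 members (69.6%, background 37.9%). It held the highest of the 6 values for 28 members (60.9%, background 29.1%), and Blimp-1 replicate 3 the lowest for 27 (58.7%, background 10.7%). The median member in Blimp-1 replicate 3 was 0.26 lower, on the log2 scale, than the mean of Blimp-1 replicates 1 and 2, against 0.02 lower for all genes. In empty vector replicate 3 it was 0.41 higher than the mean of empty vector replicates 1 and 2, against 0.00 for all genes. Without empty vector replicate 3 the median difference between the vectors was 0.01, without Blimp-1 replicate 3 it was -0.04, and without both it was 0.09. Without any other single library it was -0.23 to -0.11. The summed FPKM of the 46 members was 1875, 1793 and 1719 in Blimp-1 replicates 1, 2 and 3, against 1653, 1650 and 1888 in the empty vector libraries. Npm1 was the largest single part of each sum.

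**Figure D1:**
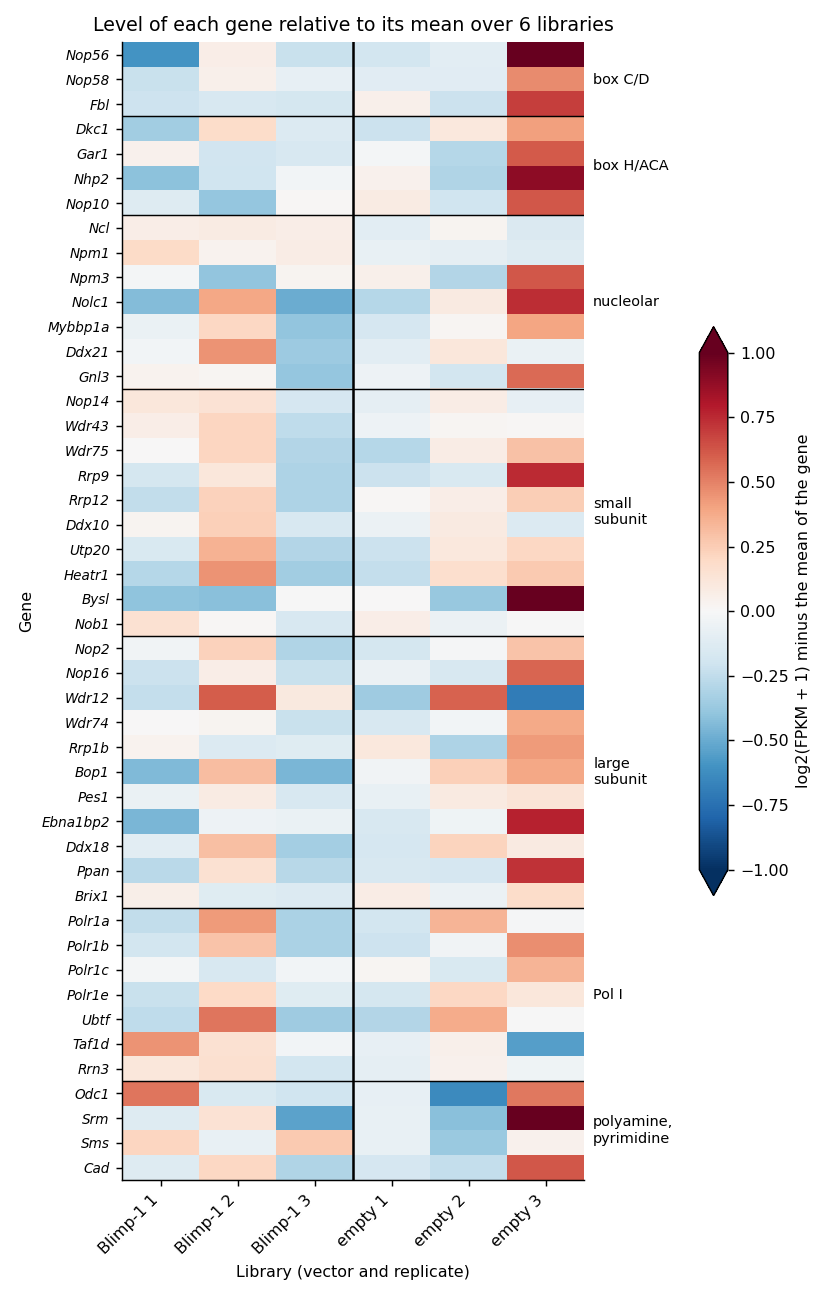
Level of each of the 46 genes in the 6 libraries, as log2(FPKM + 1) minus the gene's mean over the libraries, grouped by role, with the Blimp-1 libraries left of the black vertical line; colours saturate at 1 and -1. The column of empty vector replicate 3 is red for most genes (28 of 46 have their highest value there), and that of Blimp-1 replicate 3 is blue for most (27 of 46 have their lowest value there).

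Few members kept 1 direction in all pairs. There were 5 higher with Blimp-1 in 3 of 3 pairs, namely Ncl, Npm1, Wdr12, Taf1d and Sms. They made up 10.9% of members, against a background of 22.8%. Another 7 were lower in 3 of 3 pairs, namely Nop10, Npm3, Bysl, Brix1, Ebna1bp2, Polr1c and Polr1e, or 15.2% against 22.8%. The 2 vectors had no overlap in 2 members that were higher, Ncl and Npm1 (4.35%, background 2.29%), and in 0 that were lower (background 2.34%). With fewer libraries, which can overlap less, some of these counts were larger. The lower members without overlap were then 17 without both libraries numbered 2 (37%, background 12.9%), 8 without Blimp-1 replicate 2 (17.4%, background 7.35%) and 8 without empty vector replicate 2 (17.4%, background 7.86%). The higher ones were 9 without both libraries numbered 3 (19.6%, background 13.1%), 6 without Blimp-1 replicate 3 (13%, background 10.7%), 5 without both numbered 2 (10.9%, background 13.4%) and 4 without empty vector replicate 2 (8.7%, background 9.97%). In each of the other combinations of direction and left-out libraries there were 3 or fewer, against 3.23% to 10.9% of all genes.

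The box C/D snoRNPs, which guide ribose methylation of ribosomal RNA, are built on Fbl, Nop56 and Nop58, and these members had the most negative role median, -0.36 on the log2 scale. Fbl encodes fibrillarin, the methyltransferase itself. It had 50.5, 52.1 and 51.5 FPKM in Blimp-1 replicates 1, 2 and 3, against 60.5, 50.2 and 94.7 FPKM with the empty vector. Nop56, a scaffold protein of the particle, had 16.3, 26.5 and 21.5 FPKM with Blimp-1, against 22.1, 23.4 and 53.4 FPKM with the empty vector. For both genes empty vector replicate 3 was far above the other 5 libraries, and the groups overlapped. The log2 difference was -0.36 for Fbl (SE 0.22, limma adjusted p = 0.998) and -0.50 for Nop56 (SE 0.34, limma adjusted p = 0.998). Without empty vector replicate 3 alone these values were -0.10 and -0.11, and without both libraries numbered 3 they were -0.10 and -0.12. Nop58, the partner of Nop56, had 23.2 ± 2.29 FPKM with Blimp-1 and 26.6 ± 6.82 FPKM with the empty vector (SD, n = 3 each). The difference of Nop58 was -0.17, but 0.03 without the libraries numbered 3. By pair the role median was -0.26, 0.16 and -0.87, and it was -0.10 without the libraries numbered 3. All 3 genes were lower in pairs 1 and 3 and all 3 were higher in pair 2. Empty vector replicate 3 deviated from empty vector replicates 1 and 2 by a median of 0.77 in this role. Blimp-1 replicate 3 deviated from Blimp-1 replicates 1 and 2 by a median of 0.01.

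The box H/ACA snoRNPs direct the conversion of uridine to pseudouridine and hold Dkc1, Gar1, Nhp2 and Nop10. The role median was -0.27 over all libraries -0.17, 0.08 and -0.69 by pair, and -0.10 without the libraries numbered 3. Nop10, the smallest core protein, had 46.9, 39.1 and 52.0 FPKM with Blimp-1, against 54.4, 44.7 and 79.7 FPKM with the empty vector. Nhp2, an RNA-binding core protein, had 17.6, 20.6 and 23.4 FPKM with Blimp-1, against 24.5, 19.2 and 45.2 FPKM with the empty vector. Nop10 was lower with Blimp-1 within each pair although the groups overlapped, and Nhp2 was lower in pairs 1 and 3 only. Their log2 differences were -0.33 for Nop10 (SE 0.22, limma adjusted p = 0.998, and 0.180 with the block) and -0.43 for Nhp2 (SE 0.29, limma adjusted p = 0.998). Without empty vector replicate 3 alone they were -0.11 and -0.083, and without both libraries numbered 3 they were -0.20 and -0.18. Dkc1, the pseudouridine synthase dyskerin, averaged 11.1 ± 2.27 FPKM with Blimp-1 and 13.0 ± 3.04 FPKM with the empty vector. Gar1, which binds the synthase, averaged 8.12 ± 0.819 FPKM with Blimp-1 and 9.89 ± 3.64 FPKM with the empty vector (SD, n = 3 each). The differences of Dkc1 and Gar1 were -0.20 and -0.21, but -0.03 and 0.08 without the libraries numbered 3. All 4 genes had their highest value in empty vector replicate 3, which deviated from empty vector replicates 1 and 2 by a median of 0.72. Blimp-1 replicate 3 deviated from Blimp-1 replicates 1 and 2 by a median of 0.11.

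Npm1 and Ncl, the abundant nucleolar proteins nucleophosmin and nucleolin, went the other way. Npm1, a chaperone of ribosome assembly and export, had 991, 889 and 911 FPKM in Blimp-1 replicates 1, 2 and 3, against 823, 814 and 791 FPKM with the empty vector. It was the most abundant member, at 930.1 ± 53.8 FPKM with Blimp-1 and 809 ± 16.2 FPKM with the empty vector (SD, n = 3 each), a ratio of 1.15. Each Blimp-1 library lay above each empty vector library. The log2 difference of Npm1 was 0.20 (SE 0.11, limma adjusted p = 0.998, and 0.157 with the block). One of its 3 transcripts carried 82.1% to 84.7% of the value in the Blimp-1 libraries and 78.8% to 83.4% in the empty vector libraries. Processed pseudogene copies of Npm1 exist, so reads may have been divided by the authors' quantification, and the same holds for Odc1.

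Ncl, an RNA-binding protein that acts on polymerase I transcription and on the ribosomal RNA precursor, had 108, 109 and 108 FPKM with Blimp-1, against 95.9, 105 and 93.3 FPKM with the empty vector. These groups too did not overlap, by a margin of a few FPKM, and the log2 difference was 0.14 (SE 0.11, limma adjusted p = 0.998). Nolc1, a chaperone that moves between nucleolus and Cajal bodies, had 4.46, 8.60 and 4.21 FPKM with Blimp-1, against 5.04, 6.85 and 11.2 FPKM with the empty vector. Its pair differences, -0.15, 0.29 and -1.24, spanned 1.52 on the log2 scale, and the pooled difference was -0.36 (SE 0.32, limma adjusted p = 0.998) but 0.07 without the libraries numbered 3. With the highest of its 4 transcripts in place of their sum, the difference was -0.74. Npm3, a small relative of Npm1, averaged 51.9 ± 8.04 FPKM with Blimp-1 and 63.9 ± 21.1 FPKM with the empty vector. The helicase gene Ddx21, the GTP-binding protein gene Gnl3 (nucleostemin) and the nucleolar protein gene Mybbp1a had differences of 0.04, -0.22 and -0.17. Without the libraries numbered 3 these were 0.21, 0.14 and 0.14. The median of all 7 nucleolar proteins was -0.17, and 0.14 without those libraries.

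**Figure D2:**
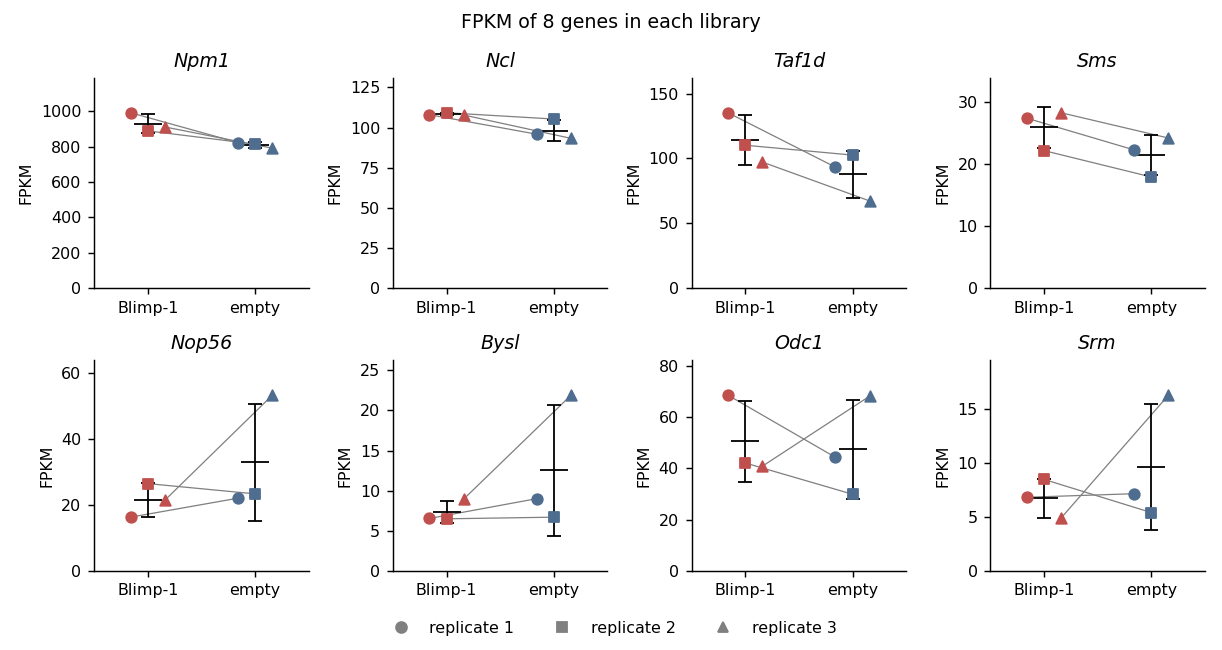
FPKM of 8 genes in the 3 Blimp-1 libraries (red, left) and the 3 empty vector libraries (blue, right); symbols mark the replicate number, grey lines join same-numbered libraries, and black bars give the mean and SD of each vector. Npm1, Ncl, Taf1d and Sms are higher with Blimp-1 within each pair, whereas in Nop56, Bysl, Odc1 and Srm the triangle of empty vector replicate 3 lies far above that of Blimp-1 replicate 3.

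The small subunit factors are 10 genes that act in early or late steps of making this subunit. They had a median difference of -0.06, pair medians of 0.07, 0.16 and -0.53, and a median of 0.13 without the libraries numbered 3. All 10 were lower with Blimp-1 in pair 3, while 7 were higher in both other pairs. Blimp-1 replicate 3 held the lowest value for 9 of the 10. Nob1, the endonuclease that makes the last cut at the end of the small subunit RNA, had 23.2, 21.0 and 18.5 FPKM with Blimp-1, against 21.8, 20.0 and 20.7 FPKM with the empty vector. Wdr43, a scaffold of the small subunit processome, had 16.4, 18.3 and 12.9 FPKM with Blimp-1, against 15.1, 15.9 and 15.8 FPKM with the empty vector. For both genes Blimp-1 replicate 3 was the lowest library, while Blimp-1 replicates 1 and 2 lay above the empty vector libraries of the same number. The pooled differences were -0.00 for Nob1 (SE 0.13, limma adjusted p = 0.999) and 0.01 for Wdr43 (SE 0.15, limma adjusted p = 0.998), and 0.08 and 0.15 without the libraries numbered 3.

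Bysl, a late small subunit factor (bystin), had the most negative difference of the 46 members. It had 6.53, 6.48 and 8.94 FPKM with Blimp-1, against 9.00, 6.69 and 21.9 FPKM with the empty vector. The groups overlapped, and empty vector replicate 3 had 2.45 times the value of Blimp-1 replicate 3. The log2 difference of Bysl was -0.55 (SE 0.38, limma adjusted p = 0.998, and 0.234 with the block). It was -0.089 without empty vector replicate 3 and -0.22 without both libraries numbered 3. Exons of Bysl overlap those of Ccnd3 on the opposite strand over 361 bases in the GENCODE annotation of GRCm38. The sources used here give no strand setting, so reads of the 2 genes cannot be told apart there. The same holds, over 5 to 131 bases, for 12 other members: Bop1, Dkc1, Gnl3, Mybbp1a, Nhp2, Nop14, Nop56, Npm3, Pes1, Polr1a, Rrp1b and Taf1d. Utp20, Heatr1 and Rrp12, which encode long processome and export proteins, were low in level, each below 4 FPKM on average with either vector. Their differences were -0.06, -0.13 and -0.22, and without the libraries numbered 3 they were 0.15, 0.12 and -0.05. Rrp9, which binds the snoRNP of the first cleavages, was at 5.98 ± 1.06 FPKM with Blimp-1 and 7.65 ± 3.46 FPKM with the empty vector (SD, n = 3 each). The difference of Rrp9 was -0.25, but 0.15 without the libraries numbered 3. The differences of Nop14, Wdr75 and Ddx10 lay between -0.05 and 0.07, and without the libraries numbered 3 they were 0.14, 0.21 and 0.12.

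The 11 large subunit factors had a median of -0.13, pair medians of -0.02, 0.07 and -0.59, and a median of 0.05 without the libraries numbered 3. Of the 11 genes 10 were lower with Blimp-1 in pair 3. Empty vector replicate 3 held the highest value for 9 and Blimp-1 replicate 3 the lowest for 8. Pes1, Bop1 and Wdr12 form one complex that is needed to process the large subunit RNAs. Pes1 had 17.9, 20.0 and 16.7 FPKM with Blimp-1, against 17.8, 20.0 and 20.6 FPKM with the empty vector. In pairs 1 and 2 its values were nearly equal, and in pair 3 Blimp-1 was lower. Its log2 difference was -0.09 (SE 0.13, limma adjusted p = 0.998), and 0.0040 without the libraries numbered 3. Wdr12 had 14.4, 26.7 and 18.5 FPKM with Blimp-1, against 13.2, 26.3 and 10.2 FPKM with the empty vector, and was the large subunit member whose pair 3 difference was positive, at 0.80. Its log2 difference was 0.32 (SE 0.35, limma adjusted p = 0.998), but 0.03 for the highest of its 3 transcripts and 0.07 without the libraries numbered 3. Bop1 averaged 6.86 ± 2.57 FPKM with Blimp-1 and 9.06 ± 1.45 FPKM with the empty vector. The 3 genes of this complex had differences of -0.39 for Bop1 (-0.17 without the libraries numbered 3), -0.09 for Pes1 and 0.32 for Wdr12. The helicase gene Ddx18, the RNA methyltransferase gene Nop2 and the assembly factor genes Nop16, Wdr74, Rrp1b, Ppan, Brix1 and Ebna1bp2 had differences of -0.38 (Ebna1bp2) to -0.07 (Nop2), and of -0.15 to 0.19 for the same genes without the libraries numbered 3.

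Among the RNA polymerase I genes the median was -0.10, the pair medians were 0.02, 0.10 and -0.30, and the median without the libraries numbered 3 was 0.10. Empty vector replicate 3 deviated from empty vector replicates 1 and 2 by a median of -0.02 in this role and held the highest value for 2 of 7 genes. Blimp-1 replicate 3 deviated from Blimp-1 replicates 1 and 2 by a median of -0.33 and held the lowest value for 4 of 7. The catalytic subunit gene Polr1a averaged 6.35 ± 2.21 FPKM with Blimp-1 and 6.73 ± 1.48 FPKM with the empty vector. The second-largest subunit gene Polr1b averaged 3.19 ± 0.955 FPKM with Blimp-1 and 3.65 ± 1.18 FPKM with the empty vector. The differences of Polr1a and Polr1b were -0.10 and -0.15, but 0.01 and 0.17 without the libraries numbered 3. Polr1c, a subunit shared with RNA polymerase III, had 23.2, 20.9 and 23.0 FPKM with Blimp-1, against 23.7, 21.0 and 30.0 FPKM with the empty vector. It was lower in each pair but by 0.03 and 0.01 on the log2 scale in pairs 1 and 2, and its pooled difference was -0.14 (SE 0.16, limma adjusted p = 0.998) but -0.02 without the libraries numbered 3. The other subunit, Polr1e, had a difference of -0.10. Ubtf, the upstream binding factor that keeps ribosomal DNA open, stood at 15.6, 27.7 and 14.5 FPKM with Blimp-1, against 15.2, 24.6 and 18.8 FPKM with the empty vector, and was highest in the libraries numbered 2 with either vector. The pooled difference of Ubtf was -0.05 (SE 0.27, limma adjusted p = 0.998), but 0.10 without the libraries numbered 3. Rrn3, which recruits the polymerase to the promoter and whose own promoter is printed above, averaged 9.63 ± 1.32 FPKM with Blimp-1 and 9.14 ± 0.477 FPKM with the empty vector.

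Taf1d, a subunit of the promoter selectivity factor of RNA polymerase I, had the most positive difference of the 46 members. It had 135, 110.2 and 97.2 FPKM with Blimp-1, against 93.3, 103 and 67.3 FPKM with the empty vector. It was higher within each pair, while Blimp-1 replicate 3 lay below empty vector replicate 2. The log2 difference of Taf1d was 0.39 (SE 0.20, limma adjusted p = 0.998, and 0.159 with the block), and 0.21 without empty vector replicate 3. Taf1d is also a host gene that carries small nucleolar RNAs in its introns. A transcript that RefSeq classes as noncoding held 61.8% to 74.6% of its summed value in the Blimp-1 libraries and 63.7% to 73.6% in the empty vector libraries. The 2 coding transcripts averaged 13.8 ± 3.27 and 21.2 ± 4.04 FPKM with Blimp-1, against 11.4 ± 0.746 and 15.6 ± 1.79 FPKM with the empty vector (SD, n = 3 each).

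Polyamines are small cations that bind RNA and are needed for growth, and their synthesis runs from ornithine through Odc1, Srm and Sms. Odc1, ornithine decarboxylase, had 68.6, 42.1 and 40.9 FPKM with Blimp-1, against 44.4, 29.9 and 68.3 FPKM with the empty vector. It was higher with Blimp-1 by 0.62 and 0.48 on the log2 scale in pairs 1 and 2 and lower by 0.73 in pair 3, so the pooled difference was 0.12 (SE 0.32, limma adjusted p = 0.998). Srm, spermidine synthase, had 6.82, 8.48 and 4.90 FPKM with Blimp-1, against 7.15, 5.41 and 16.3 FPKM with the empty vector. Its pair differences of -0.06, 0.57 and -1.55 spanned 2.12, the widest range among the members, around a pooled value of -0.35 (SE 0.37, limma adjusted p = 0.998), which was 0.25 without the libraries numbered 3. Sms, spermine synthase, had 27.4, 22.1 and 28.2 FPKM with Blimp-1, against 22.2, 17.9 and 24.2 FPKM with the empty vector. Its pair differences of 0.29, 0.29 and 0.22 spanned 0.0763, and the pooled value was 0.26 (SE 0.16, limma adjusted p = 0.998, and 0.151 with the block). Cad, whose protein carries out the first steps of pyrimidine synthesis, had 3.78, 5.04 and 3.25 FPKM with Blimp-1, against 3.64, 3.43 and 7.06 FPKM with the empty vector. The pooled difference of Cad was -0.14 (SE 0.26, limma adjusted p = 0.998), but 0.24 without the libraries numbered 3. Of the role, 3 of these 4 genes had a higher value in empty vector replicate 3 than in Blimp-1 replicate 3, and Sms did not. The role median was -0.01, and 0.27 without the libraries numbered 3.

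**Figure D3:**
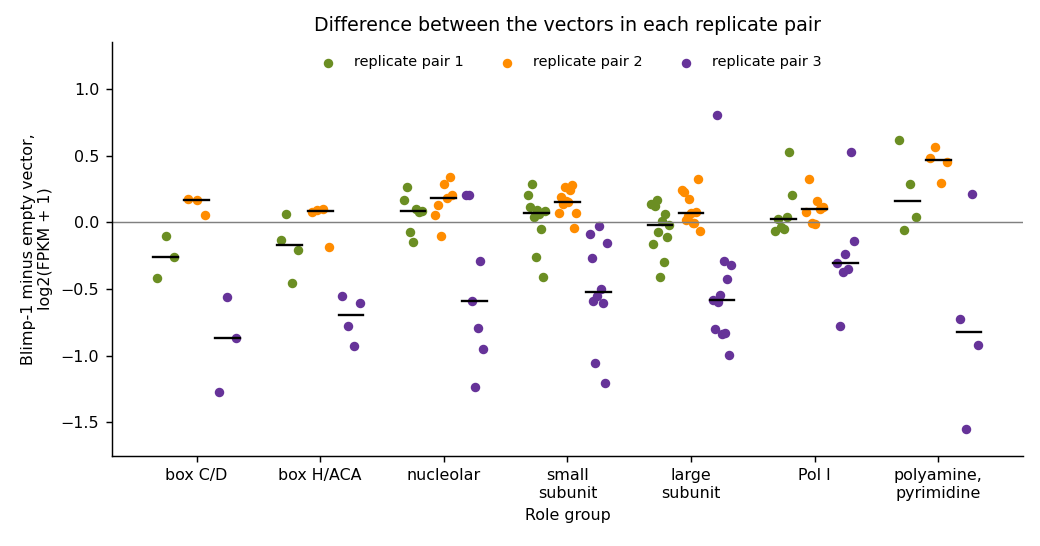
Difference between Blimp-1 and empty vector, in log2(FPKM + 1), for each member in replicate pairs 1 (green), 2 (orange) and 3 (purple), by role; black lines are role medians. The pair 3 median is the lowest in each role, from -0.30 for the RNA polymerase I genes to -0.87 for the box C/D genes.

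When both libraries numbered 3 were left out, the blocked fit had 4 libraries and 1 residual degree of freedom. Limma then called 545 genes higher (5.02%) and 675 lower (6.21%) with Blimp-1. Without both libraries numbered 1 it called 1 higher and 2 lower, and without both numbered 2 it called 7 higher and 21 lower, with 0 members among them. Without those numbered 3, 4 members were called higher and 0 lower. Odc1 averaged 55.4 FPKM in Blimp-1 replicates 1 and 2 and 37.1 FPKM in empty vector replicates 1 and 2, a ratio of 1.49 (log2 difference 0.55, limma adjusted p = 8.03e-05). Taf1d had a ratio of 1.25 (log2 difference 0.32, limma adjusted p = 0.0174) and Sms of 1.23 (0.29, limma adjusted p = 0.0157). Npm1 had a ratio of 1.15 (0.20, limma adjusted p = 0.0318). Of these, Taf1d, Sms and Npm1 were also higher with Blimp-1 in pair 3, and Odc1 was not. The 4 called members are 8.70% of the 46, against the background of 5.02%. Pair 3 was left out because empty vector replicate 3 stood apart, so these calls rest on libraries chosen after the values were seen.

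Members with higher GC content deviated more in empty vector replicate 3, and members with longer coding sequence deviated more in Blimp-1 replicate 3. Coding length and GC content could be had for 45 of the 46 members. Across these genes the deviation of empty vector replicate 3 from empty vector replicates 1 and 2 had a Spearman correlation of 0.54 with coding GC content (0.13 across the 9745 tested genes with a value). The deviation of Blimp-1 replicate 3 from Blimp-1 replicates 1 and 2 had a Spearman correlation of -0.61 with coding length (-0.26 across those 9745 genes). The 25 members with more than 1500 coding bases had a median deviation of -0.39 in Blimp-1 replicate 3, against -0.09 for the 20 shorter ones. In empty vector replicate 3 the medians were 0.28 for the longer and 0.71 for the shorter members. For the pair 3 difference itself the Spearman correlation was 0.13 with coding length (0.15 across all those genes) and -0.58 with GC content (-0.20 across all). With GC content it was -0.47 for the pair 1 difference and 0.02 for the pair 2 difference (-0.18 and -0.06 across all). With coding length it was 0.21 for pair 1 and 0.42 for pair 2 (0.21 and 0.23 across all). These correlations are across genes that share the same libraries, so the genes are not independent replicates and no test was made. The part of length, base composition and depth in the differences of pair 3 was not tested.

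**Figure D4:**
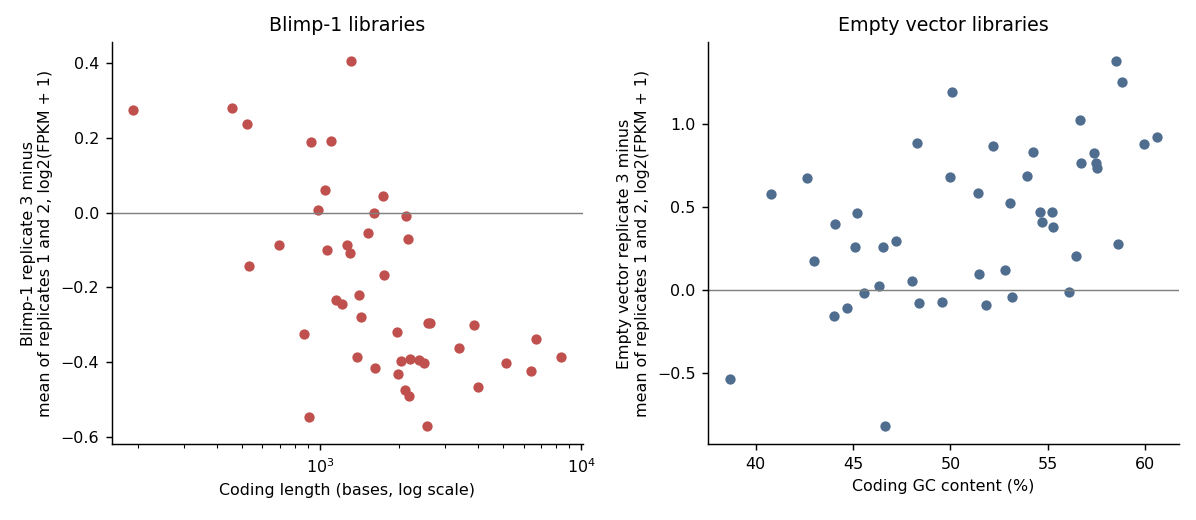
Left, deviation of Blimp-1 replicate 3 from the mean of Blimp-1 replicates 1 and 2 against coding length (log axis); right, deviation of empty vector replicate 3 from the mean of empty vector replicates 1 and 2 against coding GC content; each point is 1 of 45 members and deviations are in log2(FPKM + 1). The Spearman correlations are -0.61 on the left and 0.54 on the right.

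Other genes of the same pathway were read in the same way. In none of the lists that follow was a gene called with all 6 libraries, with or without the block. Without both libraries numbered 3, the blocked fit called 3 of 46 other small subunit factors and 2 of 43 other large subunit factors higher (background 5.02%). It called 2 of 16 RNA polymerase II genes and 1 of 7 genes of the MYC network lower (background 6.21%). The 46 other factors of the small subunit had a median of -0.05. Their pair medians were 0.06, 0.04 and -0.20, with 14, 15 and 42 of 46 lower in pairs 1, 2 and 3, and their median without the libraries numbered 3 was 0.04. They ran from -0.38 for the processome protein gene Tbl3 to 0.24 for the helicase gene Ddx52. The 43 other large subunit factors had a median of -0.08, pair medians of 0.02, 0.06 and -0.31, and a median of 0.06 without the libraries numbered 3. Their ends were Lyar, at -0.38, and Urb2, at 0.24. The 13 tested further subunits and factors of RNA polymerase I had a median of -0.03 and pair medians of 0.03, 0.02 and -0.08. Their ends were Polr2f, a subunit shared by all 3 nuclear polymerases, at -0.41, and Taf1b, a partner of Taf1d, at 0.11.

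The RNA exosome, which trims the ends of ribosomal RNA precursors, had 13 of 13 genes below 0, with a median of -0.20. The pair medians were -0.12, -0.01 and -0.39, with 11, 7 and 13 of 13 lower, and the median without the libraries numbered 3 was -0.10. Of these 7 were lower in 3 of 3 pairs (background 22.8%) and 12 had their highest value in empty vector replicate 3 (background 29.1%). The exosome values ran from -0.34 for the subunit gene Exosc6 to -0.02 for the nuclease gene Dis3. The 9 tested genes of further polyamine metabolism had a median of 0.05 and pair medians of -0.09, 0.07 and -0.16. They ran from -0.30 for Eif5a, the translation factor that carries a polyamine-derived residue, to 0.25 for Smox, spermine oxidase. The 15 further genes of nucleotide synthesis had a median of -0.09, pair medians of -0.02, 0.08 and -0.25, and a median of 0.08 without the libraries numbered 3, with ends at Adsl (-0.25) and Adss (0.23), which act in consecutive steps of adenine nucleotide synthesis.

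The other nuclear polymerases were set beside these genes. The 20 RNA polymerase III genes had a median of -0.07 and pair medians of -0.04, 0.03 and -0.21, with ends at the initiation factor genes Gtf3c6 (-0.24) and Bdp1 (0.18). The 16 RNA polymerase II genes had a median of -0.10 and pair medians of -0.05, -0.03 and -0.24, with ends at Polr2j (-0.45) and Gtf2h1 (0.13). Without the libraries numbered 3 both medians were -0.03. The difference between these lists and the members was not tested. Of the 7 tested genes of the MYC network 4 lay below 0 and 3 above, with ends at Mxd3 (-0.47) and Mxd4 (0.28), which both encode repressors that pair with MAX. Myc itself had 27.3, 31.6 and 30.4 FPKM with Blimp-1, against 29.1, 26.4 and 60.2 FPKM with the empty vector. Its pair differences of -0.09, 0.25 and -0.96 had the signs shared by 14 of the members, and its pooled value was -0.27 (SE 0.29, limma adjusted p = 0.998), and 0.08 without the libraries numbered 3. The 7 members with the MYC motif CACGTG in the promoter had pooled differences of -0.17 (Mybbp1a) to 0.26 (Sms). In pair 3, 6 of these 7 were lower, as were 41 of all 46 members (89.1%, background 51.1%).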

How the data were processed

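RNA-seq was made from 6 libraries, and the authors deposited FPKM values per RefSeq transcript, per the file headers. Build mm9 and the tools Cufflinks 2.2, CASAVA 1.8.2 and Partek 6.6 are listed, without roles, by the submitters' processing notes. Aligner, annotation release, filters and strand setting were not given in the sources used here. FPKM keep no counts, so no count test was run, and depth was estimated from the lowest values of genes with 1 transcript of at least 1500 bases, taken as 1 read.

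Transcripts were named by RefSeq accession and their FPKM summed per gene. Genes that reached 1 FPKM in 3 or more libraries entered limma 3.58.1 (R 4.3.3) as log2(FPKM + 1), a scale that understates changes of low genes. The fit had a mean-variance trend, the vector as its only term, and Benjamini-Hochberg adjustment at 0.05, and was tested on simulated data. Another fit added the replicate number as a block, since the deviations of same-numbered libraries correlated at 0.80, 0.81 and 0.70 (other combinations -0.54 to -0.25), although no label explains the numbers. Pair 3 was left out because empty vector replicate 3 stood apart.

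The members, the lists and the markers were chosen with earlier results of these data known, so lists are given as counts and medians beside all genes, and the permutation test foreseen for summed levels was not run. Values in each library are given for the 2 most abundant members of each role, the 3 most negative and 3 most positive differences, the 3 smallest p with the block and the 3 widest pair ranges. Of the other lists the ends are named, and other values in the text were chosen after they were seen. Trac and Noc2l are not analysed here. Coding length and GC content came from GENCODE transcripts, promoters from RefSeq, both on GRCm38, which is not the build of the files. Alternatives were a pseudocount of 0.1 or 0.01, a filter of 5 FPKM or none, median and TMM scaling, the highest transcript per gene, no variance trend, the block, and leaving out libraries or pairs.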

Additional observations from a re-analysis of the deposited data

How the results depend on the processing

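With libraries scaled to a common median, and with TMM scaling, limma called 1 gene higher in place of 0, namely Prdm1 (log2 difference 2.26 and 2.27, adjusted p 0.0377 and 0.0464). With the replicate block it called 1 higher, Prdm1 (2.26, adjusted p 0.00488), and 1 lower, and the numbers were taken to pair the libraries. None of these settings called a member. Leaving out single libraries or pairs gave 0 to 545 genes called higher and 0 to 675 lower, 0 to 4 members called higher and 0 lower, 0 to 17 members lower without overlap and 2 to 9 higher without overlap (of all genes, 3.52% to 12.9% were lower and 3.23% to 13.4% higher without overlap there). The most calls and the 9 came without both libraries numbered 3, and the 17 without both numbered 2. The members' median difference ran from -0.27 to 0.09 there, and from -0.16 to -0.13 under all other settings. Counts of 3 pairs could not be given with fewer pairs. Nob1 changed sign under median scaling (0.0026) and TMM scaling (0.0071). When libraries were left out, sign changes occurred for Nob1 (-0.076 to 0.081), Odc1 (-0.16 to 0.55), Wdr43 (-0.090 to 0.15), Nolc1 (-0.69 to 0.072), Pes1 (-0.16 to 0.0040), Srm (-0.81 to 0.25) and Polr1c (-0.25 to 0.00079), and Prdm1 ran from 2.12 to 2.42. Bysl, Fbl, Ncl, Nhp2, Nop10, Nop56, Npm1, Sms, Taf1d and Wdr12 kept their sign in the settings tried. These genes and the 7 before them are the members picked by the rule for values in each library. Signs of the remaining members were not followed through each setting. Counted over all members, 22 went from below 0 to above 0 without the libraries numbered 3. The cause of these changes was not tested. With 3 libraries per vector an exact permutation test could not go below 0.10.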
